A study of Homo sapiens with 18 samples.

Results

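Genes that extend over more than 500 kb of genome were followed through the RNA of 2 human cancer cell lines after knockdown of *DNAJC17*. The genes were chosen by their annotation and by their level, which is a measured value. A gene had to be protein-coding and span more than 500 kb from its first to its last exon, to hold fewer than 60 exon blocks after overlapping exons were merged, and to have a mean of at least 50 counts over the 12 libraries of parental cells. Of 57500 genes in the files, 19583 were protein-coding, 308 of those spanned more than 500 kb, and 177 met all limits. Among the other genes over 500 kb, 20 had 60 or more exon blocks and 111 had fewer blocks but a mean under 50 counts.

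ES8 is an Ewing sarcoma line and Rh30 an alveolar rhabdomyosarcoma line. In both, CRISPRi was used, in which the dCas9-KRAB repressor is led to a promoter by an sgRNA. The groups of each line were parental cells with a control sgRNA (sgCTL), parental cells with an sgRNA against *DNAJC17* (sgDNAJC17), and cells that stably carried 3xFLAG-DNAJC17-dRRM from a lentiviral vector with an EF1 promoter and received sgDNAJC17 (ΔRRM). That protein lacks the C-terminal RNA recognition motif of *DNAJC17*, a J-domain protein that assists HSP70 chaperones. All cells spent 72 hours in puromycin. Each of the 6 groups had 3 replicates, A, B and C, which were plated side by side, so p-values may measure only technical spread. No group combined ΔRRM with sgCTL, so the effect of the construct and that of the derived cells cannot be told apart, and whether these were a pool or a clone is not stated. Polyadenylated RNA was sequenced, and the deposited tables hold raw read counts per gene.

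A very long gene is mostly intron. RNA polymerase II needs many hours to cross it, its introns are removed while transcription goes on, and use of a cryptic splice site or an early polyadenylation site can end the transcript before the last exon. Many such genes encode adhesion molecules, guidance receptors, channels and synaptic scaffolds, and several lie in common fragile sites, regions that break when replication is slowed. Relatives of *DNAJC17* are known as parts of the spliceosome.

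The 177 genes spanned 500044 bases to 2305 kb, with a median of 715.8 kb. Exons covered a median of 1.28% of the span, against 15.5% in the other 12275 protein-coding genes under the same exon and count limits. The median of the longest intron was 181.7 kb, against 9.48 kb, although the number of exon blocks, with a median of 26 against 11, differed far less. The exonic length itself was also greater, with a median of 10.2 kb against 5.11 kb, and the GC content of the longest transcript was lower, at 44.1% against 48.1%. Chromosome 3 held 23 of the genes, chromosome 7 held 16 and chromosome 1 held 15.

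The 5 longest were *CNTNAP2*, a neurexin-like adhesion protein of axons, *PTPRD*, a receptor tyrosine phosphatase, *DLG2*, a postsynaptic scaffold, *ROBO2*, a receptor for Slit guidance cues, and *RBFOX1*, a regulator of alternative splicing. In the GRCh38 coordinates of the files, *CNTNAP2* (ENSG00000174469) lies on chromosome 7, 146116002 to 148420998, plus strand, and its longest intron covers 579.1 kb. *PTPRD* lies on chromosome 9, 8314246 to 10612723, minus strand, and spans 2298 kb. *ROBO2* lies on chromosome 3, 75906695 to 77649964, plus strand, and spans 1743 kb. *NALF1*, an auxiliary protein of the sodium leak channel, has the fewest exon blocks, 3 in 703 kb (chromosome 13, 107163510 to 107866735, minus strand).

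At the limits of the choice, *AFF2* spanned 500044 bases and *ERC1* 505424 bases and were kept, while *DIAPH3* with 498404 bases and *CACNA2D1* with 497354 bases were not. *ANK3* with 59 exon blocks and *CACNA1C* with 58 were kept, and *ANK2* and *NBEA* with 62 each were not. *BANK1* with a mean of 52.0 counts and *TSHZ2* with 53.2 were kept, and *NELL1* with 49.0 and *ERBB4* with 46.1 were not.

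*DNAJC17* itself was at 11.2 to 12.4 CPM with sgCTL and 1.56 to 1.96 CPM with sgDNAJC17 in ES8. In Rh30 these levels were 10.8 to 11.9 CPM and 2.20 to 2.72 CPM. CPM here is the read count scaled to a common library size with edgeR's TMM factors. The ΔRRM libraries held 283.3 to 312.0 CPM on the gene in ES8 and 336.1 to 367.5 CPM in Rh30, reads of the construct included. Library totals ran from 35342393 to 48245989 counts. Of 8 genes of Ewing sarcoma, all had 10 or more counts in every ES8 library, and 9 of 10 rhabdomyosarcoma genes did in every Rh30 library. The summed level of those 10 genes was 3395 to 3514 CPM with sgCTL, 2818 to 3091 CPM with sgDNAJC17 and 2222 to 2475 CPM in ΔRRM libraries of Rh30. Of 17 epithelial genes, 11 stood above every sgCTL library in the 3 sgDNAJC17 libraries of Rh30 and 13 in its 3 ΔRRM libraries. For sgDNAJC17, 21.1% of all genes did so, and for ΔRRM that share was not counted, so the 13 has no background. At an adjusted p under 0.05 by edgeR, 33.8% of all genes were higher in those ΔRRM cells than with sgCTL. Summed levels of the 17 epithelial genes were 266.6 to 287.9, 289.1 to 312.9 and 338.2 to 368.5 CPM in the order of the groups. The sums rest mostly on genes abundant with sgCTL, such as *CLDN4*, with group means of 98.1, 80.4 and 124 CPM. Scarce genes moved by more, with means of 0.853, 9.51 and 9.29 CPM for *KRT8* and 0.251, 3.18 and 3.05 CPM for *KRT18*. In Rh30 with sgCTL, *CLDN7* and *RAB25* were at 0 in all libraries. In ES8, 0 of the 17 stood above every sgCTL library after sgDNAJC17, against 23.5% of all genes. In ΔRRM cells of ES8 2 did, and that share of all genes was not counted either. The part of these genes in the Rh30 results was not tested.

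Levels of the very long genes were compared between the lines first. At sgCTL the median level was 11.5 CPM in ES8 and 9.57 CPM in Rh30, with ranges from 0 to 302.1 CPM and from 0 to 147.3 CPM. At a limit of 0.5 CPM, 114 genes were detected in both lines, 47 in ES8 and not Rh30, and 16 in Rh30 and not ES8, or 64.4%, 26.6% and 9.04%. For the other 12275 protein-coding genes under the same limits these shares were 87.9%, 8.68% and 3.37%. The levels of 76 of the 177 were within 4-fold of each other. The mean count was used to choose the genes, so these levels are a description. Per kb of exon, the highest genes in ES8 were *CDK14*, a cyclin-dependent kinase, with 44.2 CPM per kb, the teneurin *TENM2* with 20.0 and the ephrin receptor *EPHB1* with 19.7. The libraries of *TENM2* and *EPHB1* overlapped on that scale. In Rh30 they were *ADK*, the adenosine kinase, with 24.3 CPM per kb, *FAF1*, a partner of FAS, with 15.9, and *PRKCA*, protein kinase C alpha, with 12.4.

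Genes held in 1 line gave the clearest contrasts. *RUNX1*, a transcription factor of blood and bone development, was at 153, 141 and 148 CPM in Rh30 with sgCTL and at 0.121 ± 0.0309 CPM (SD, n = 3) in ES8. *SOX6*, a transcription factor of cartilage and muscle fibre type, was at 203, 202 and 211 CPM in ES8 and at 0.12 ± 0.0679 CPM (SD, n = 3) in Rh30. *CELF2*, an RNA-binding regulator of splicing, stood at 79, 78.8 and 75.8 CPM in Rh30 and at 0.12, 0.234 and 0.256 CPM in ES8. *RBMS3*, another RNA-binding protein, was found in both lines, at 12.1, 12.1 and 13 CPM in ES8 and 17.8, 17.5 and 18.1 CPM in Rh30. These levels set how many genes could be tested. After the filter on low counts, 163 of the 177 were tested in ES8 and 136 in Rh30, with 122 tested in both.

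In ES8, the very long genes were lower with sgDNAJC17. Their median log2 fold change was -0.16, against -0.02 for all 17143 genes tested, and 123 of 163 were below 0. At an adjusted p under 0.05, 50 fell and 3 rose. The background was 13.8% down and 13.6% up over all genes, against 30.7% and 1.84% of the very long genes. The changes were small, with a median size of 0.39 on the log2 scale for those that fell and a largest of 0.80, so that 6 of the 50 passed 1.5-fold and 0 passed 2-fold, where 0.286% of all genes fell and 1.66% rose. In 72 of the 163, every sgDNAJC17 library was below every sgCTL library, 44.2% against 21.2% of all genes, and in 15 every one was above, 9.20% against 23.5%. In bulk RNA, fewer cells that express a gene and less RNA per cell cannot be told apart.

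The median deviation from the sgCTL mean of ES8 was between -0.02 and 0.02 in the 3 sgCTL libraries. It was -0.17, -0.12 and -0.11 in sgDNAJC17 libraries A, B and C, so the groups did not overlap. Protein-coding genes under 30 kb went the other way, with 0.11, 0.06 and 0.05 in the same libraries. The very long genes took 0.536% to 0.549% of all counts with sgCTL and 0.455% to 0.485% with sgDNAJC17.

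**Figure D1:**
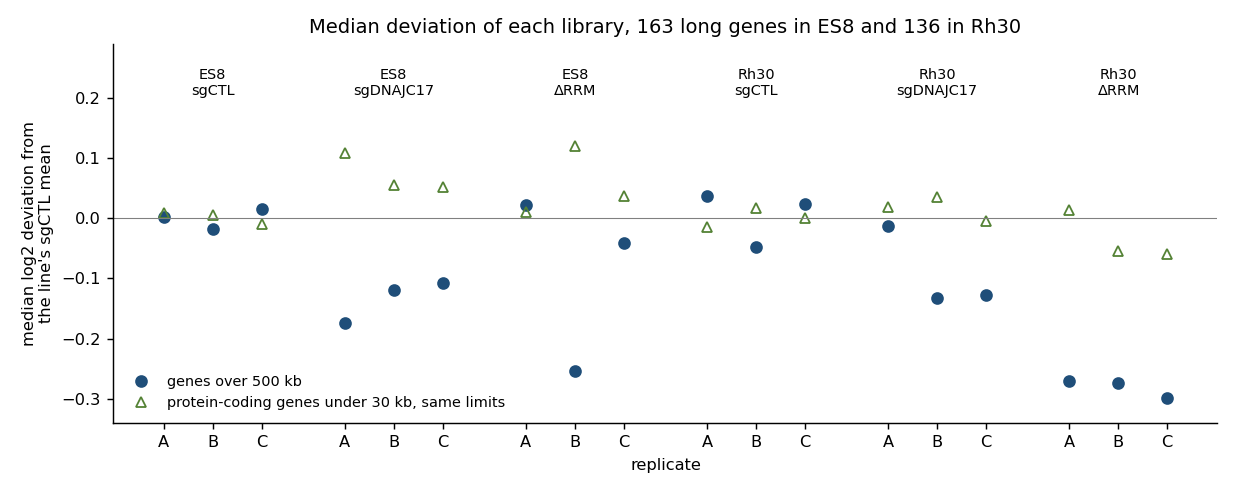
Median log2 deviation of the very long genes (filled circles, 163 genes in ES8 and 136 in Rh30) and of protein-coding genes under 30 kb (open triangles) from the sgCTL mean of each line, for every library. In ES8 the 3 sgDNAJC17 libraries lie between -0.17 and -0.11, and ΔRRM library B lies at -0.25 while A and C lie at 0.02 and -0.04.

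Genes that fell in ES8 included a transcription factor and molecules of the neuronal surface. *TSHZ2*, a zinc finger transcription factor of the teashirt family, held 2.69, 2.68 and 3.37 CPM with sgCTL and 1.43, 1.83 and 1.84 CPM with sgDNAJC17, a log2 fold change of -0.80 (± 0.16 SE, adjusted p = 0.00621). *ADGRB3*, an adhesion receptor of the brain, held 20.5, 22.7 and 21.4 and then 14.1, 15.1 and 16.2 CPM, a change of -0.53 (± 0.09 SE, adjusted p = 0.00221). *CNTNAP2*, named as the longest gene, held 37.8, 38.5 and 40.8 CPM and then 28.2, 28.1 and 29.3 CPM, a change of -0.48 (± 0.07 SE, adjusted p = 0.00116). In all 3 genes every sgDNAJC17 library was below every sgCTL library, and *ADGRB3* and *CNTNAP2* were the best measured of them.

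Lower in abundance, *ATRNL1*, an attractin-like membrane protein, went from 4.19, 3.98 and 3.94 CPM to 2.83, 2.8 and 2.56 CPM, a log2 fold change of -0.59 (adjusted p = 0.00515). *FGF12*, an intracellular growth factor homologue that binds sodium channels, went from 6.12, 6.37 and 6.22 CPM to 3.59, 4.1 and 5.09 CPM, with -0.57 (adjusted p = 0.0105). *THSD7B*, a protein with thrombospondin repeats, went from 2.79, 2.51 and 2.38 CPM to 1.77, 1.73 and 1.7 CPM, with -0.59 (adjusted p = 0.0125). None of the 3 overlapped between groups, and *THSD7B* did not pass without sgCTL A. *OPCML*, a GPI-anchored adhesion molecule, and *ERC2*, a protein of the presynaptic active zone, changed by -0.59 and -0.59 (adjusted p = 0.0244 and 0.0214), and each failed the threshold when any 1 of 3 libraries was left out. For *OPCML* these were sgCTL A, sgCTL C and sgDNAJC17 C, and for *ERC2* they were sgCTL A, sgCTL C and sgDNAJC17 B.

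Of the 5 longest, *DLG2* and *ROBO2* also fell, by 0.26 and 0.30 on the log2 scale. *ROBO2* stood at 18.1, 18.4 and 18.9 CPM and then at 15.6, 15.7 and 14.3 CPM (adjusted p = 0.0191). *DLG2* stood at 26.2, 26.2 and 25.4 CPM and then at 20.1, 22.8 and 23.1 CPM (adjusted p = 0.0368). The members most abundant per kb of exon were examined next, with *SOX6*. *EPHB1* went from 138, 134 and 139.8 to 126, 109.6 and 113 CPM, a log2 fold change of -0.26 (adjusted p = 0.0141), and *SOX6* from 203, 202 and 211 to 160.3, 188 and 186 CPM, with -0.23 (adjusted p = 0.0344). *CDK14* and *TENM2* had log2 fold changes of -0.20 (adjusted p = 0.0781) and -0.18 (adjusted p = 0.0654), and neither passed. *DLG2*, *ROBO2*, *EPHB1* and *SOX6* lost the call after removal of a trend with exonic length, with adjusted p-values of 0.399, 0.308, 0.0697 and 0.70. Each of them also lost it without sgCTL A, without sgCTL B and without sgCTL C. The call was lost as well without sgDNAJC17 B for *EPHB1*, without sgDNAJC17 C for *ROBO2* and without either of those libraries for *DLG2*.

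The 3 genes that rose in ES8 were *NALF1*, *WWOX* and *EXOC4*. *NALF1* held 2.93, 2.26 and 2.4 CPM with sgCTL and 4.39, 4.84 and 4.79 CPM with sgDNAJC17, a log2 fold change of 0.86 (± 0.13 SE, adjusted p = 0.00161). *WWOX*, an oxidoreductase encoded across a common fragile site, held 34.2, 32.6 and 33.9 and then 42.4, 40.7 and 42.8 CPM, with 0.30 (± 0.06 SE, adjusted p = 0.00787). *EXOC4*, a subunit of the exocyst that tethers secretory vesicles, held 100.2, 99.4 and 102 and then 122, 123 and 121 CPM, with 0.25 (± 0.05 SE, adjusted p = 0.00624). The groups did not overlap in any of the 3, and *WWOX* did not pass without sgCTL B. Without sgDNAJC17 A, 15 members rose. Without sgCTL A, B or C, 23, 28 and 23 members fell.

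Genes were next divided by span. In ES8, median log2 fold changes of protein-coding genes under the same exon and count limits were 0.09 under 10 kb, 0.02 from 10 to 30 kb, -0.05 from 30 to 100 kb, -0.13 from 100 to 200 kb, -0.15 from 200 to 500 kb and -0.16 above that. The share that fell went from 9.12% in the shortest class to 28.7%, 27.7% and 30.7% in the longest 3, and the share that rose from 27.1% to 1.84%. In Rh30 the medians were 0.05, 0.03, 0.01, -0.08, -0.10 and -0.11 in the same order. From 100 kb upward the medians differed by little in either line. Within the very long genes, the rank correlation of span with log2 fold change was -0.09 over 163 genes in ES8 and 0.24 over 136 in Rh30, where the points share libraries. With GC content in place of span, it was 0.22 in ES8 and -0.38 in Rh30 over the same genes.

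Span and exonic length could not be fully separated, since long genes also have long transcripts. After a trend of each library with exonic length had been removed, the median of the very long genes was -0.03 in ES8, with 29 down and 8 up, and -0.01 in Rh30, with 25 down and 26 up. All 29 and all 25 were among the genes called without that step. The shares of very long genes down and up were 17.8% and 4.91% in ES8 and 18.4% and 19.1% in Rh30. After that step, genes of 200 to 500 kb had 17.2% down and 8.65% up in ES8, and 19.3% and 13.3% in Rh30. Among genes with over 8 kb of exon, the ES8 medians were -0.02 for 304 genes under 30 kb in span, -0.07 for 1084 genes from 30 to 100 kb, -0.17 for 1151 genes from 100 to 500 kb and -0.17 for 107 of the very long genes. Among genes with 4 to 8 kb of exon, they were 0.02, -0.06, -0.12 and -0.19, the last over 48 genes. In Rh30, the medians over 8 kb of exon were -0.06, -0.06, -0.15 and -0.14, and from 4 to 8 kb of exon they were -0.02, 0.0043, -0.03 and -0.03. With under 4 kb of exon, the medians were 0.07, -0.01, -0.04 and -0.05 in ES8, the last over 8 genes, and 0.07, 0.11, 0.10 and -0.01 in Rh30, the last over 6 genes. In Rh30 the median was thus not lower with each longer span in the classes under 8 kb of exon. With a trend in GC content removed in place of exonic length, the medians of the very long genes were -0.12 in ES8, with 61 down and 15 up, and -0.13 in Rh30, with 38 down and 15 up.

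**Figure D2:**
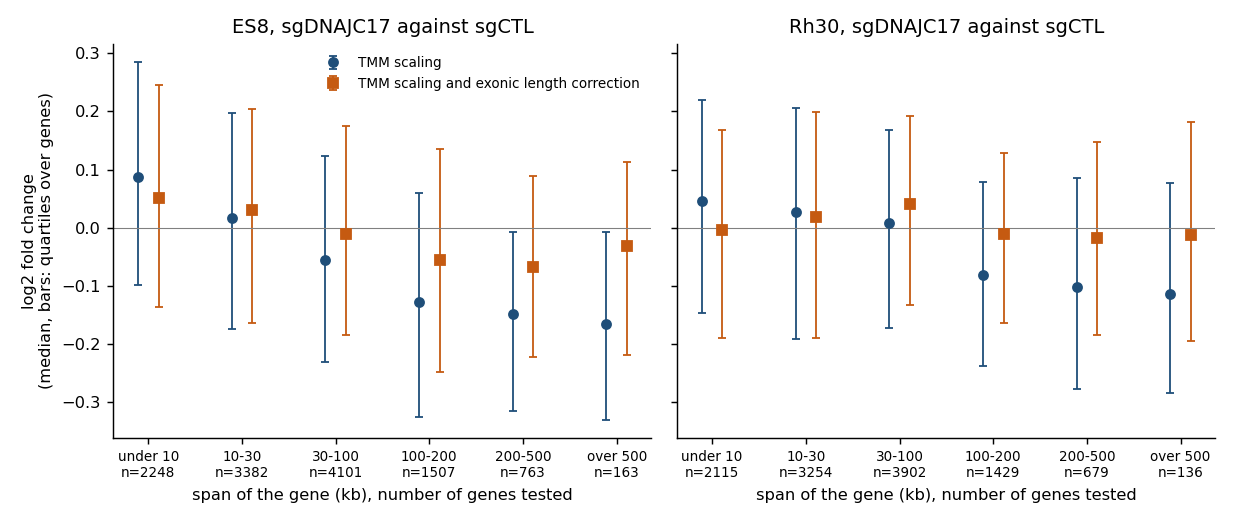
Median log2 fold change of sgDNAJC17 against sgCTL by span of the gene in kb, with bars from the lower to the upper quartile over genes, for protein-coding genes with fewer than 60 exon blocks and a mean of at least 50 counts. Circles fall from 0.09 to -0.16 for ES8, those for Rh30 from 0.05 to -0.11, and squares, after removal of a trend with exonic length, end at -0.03 and -0.01.

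Of the genes over 500 kb that were kept out for having 60 or more exon blocks, 15 had a mean of at least 50 counts. In each line 14 of them were tested, with 9 down and 0 up in ES8 and 8 down and 1 up in Rh30, and 5 not called in each. Over all genes tested, 13.8% fell and 13.6% rose in ES8, and 16.2% and 16.1% in Rh30. The median log2 fold change of the 14 was -0.40 in ES8 and -0.36 in Rh30. In *UTRN*, which encodes utrophin, the log2 fold change was -0.74 in ES8 and -0.62 in Rh30 (adjusted p = 0.000649 and 0.000998). *SYNE1*, which encodes the nuclear envelope protein nesprin-1, had -0.58 and -0.64 (adjusted p = 0.0018 and 0.0008), and *NBEA*, neurobeachin, -0.66 and -0.72 (adjusted p = 0.00147 and 0.000388). These 3 were chosen after their values were seen. With the limit on exon blocks lifted, the median of the group was -0.17 in ES8 and -0.13 in Rh30. The rank correlation of log2 fold change with the number of exon blocks over all protein-coding genes under the limits was -0.38 over 12164 genes in ES8 and -0.33 over 11515 in Rh30, against -0.27 and -0.14 for span.

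In Rh30, the very long genes also fell more often than they rose. Their median log2 fold change was -0.11, against 0.0045 for all 15391 genes tested, and 38 of 136 fell while 14 rose. That was 27.9% down and 10.3% up, against a background of 16.2% and 16.1%. The next shorter classes were alike, with 25.1% down and 9.52% up from 100 to 200 kb and 29.5% and 8.84% from 200 to 500 kb. Of the very long genes that fell, 7 passed 1.5-fold and 2 passed 2-fold, where 0.786% of all genes fell and 0.767% rose. In 40 members every sgDNAJC17 library was below every sgCTL library, 29.4% against 23.2% of all genes, and in 19 every one was above, 14.0% against 21.1%. Median deviations were 0.04, -0.05 and 0.02 in sgCTL libraries A, B and C and -0.01, -0.13 and -0.13 in the sgDNAJC17 libraries, so that sgDNAJC17 A lay within the sgCTL range. Without sgDNAJC17 B, 21 members fell and 6 rose, and without sgCTL A, 5 rose.

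The gene that fell most in either line was *PLXNA4*, a plexin that serves as receptor for class 3 semaphorins. It held 28.4, 26.9 and 27.1 CPM with sgCTL and 8.85, 6.61 and 7.56 CPM with sgDNAJC17, a log2 fold change of -1.82 (± 0.10 SE, adjusted p = 5.13e-08). The ΔRRM libraries lay between, at 15.6, 18.5 and 20.3 CPM. *KIF26B*, a kinesin-like protein that was the other to pass 2-fold and is named for that, was scarce, at 2.71, 2.56 and 2.54 CPM and then 1.41, 0.897 and 0.942 CPM (-1.23, adjusted p = 0.000485).

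Scaffolds and regulators followed. *FRMD4A*, a FERM-domain scaffold of cell polarity, went from 15.6, 13.4 and 15.2 to 9.9, 7.78 and 7.53 CPM, a log2 fold change of -0.79 (± 0.11 SE, adjusted p = 0.000187). *SHANK2*, a postsynaptic scaffold, went from 33.9, 28.9 and 32.7 to 23.1, 16.3 and 17.3 CPM, with -0.73 (± 0.11 SE, adjusted p = 0.00033). *RORA*, a nuclear receptor, went from 6.96, 6.7 and 6.55 to 4.19, 3.89 and 4.6 CPM, with -0.66 (± 0.11 SE, adjusted p = 0.00081). None of these overlapped between groups, and in *FRMD4A* and *SHANK2* library A was the highest of the sgDNAJC17 libraries, as it was for the group. *MAST4*, a serine/threonine kinase, and *TRAPPC9*, a subunit of a vesicle tether, changed by -0.82 and -0.57 (adjusted p = 0.00163 and 0.00311), and their groups did not overlap either.

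Among those that rose in Rh30, *HDAC9*, a class IIa histone deacetylase, went from 7.7, 7.8 and 7.09 to 11.1, 11.5 and 13.2 CPM, a log2 fold change of 0.68 (± 0.10 SE, adjusted p = 0.000333). *SUPT3H*, a subunit of the SAGA coactivator, went from 6.35, 7.68 and 7.87 to 9.97, 10.4 and 8.81 CPM, with 0.43 (adjusted p = 0.00802). *FGF13*, a relative of *FGF12*, went from 28.9, 34.3 and 32.5 to 41.5, 39.9 and 45.5 CPM, with 0.42 (adjusted p = 0.00149). In each, every sgDNAJC17 library was above every sgCTL library. *IMMP2L*, a peptidase of the inner mitochondrial membrane, and *CAMTA1*, a calmodulin-binding transcription activator, rose by 0.34 and 0.32 on the log2 scale (adjusted p = 0.0178 and 0.0104). Neither passed without sgCTL A or without sgDNAJC17 B, and *IMMP2L* did not pass without sgDNAJC17 C. *BANK1*, a scaffold of B cells, rose from 1.72, 2.01 and 2.18 to 2.79, 3.13 and 2.67 CPM (0.55, adjusted p = 0.0164), and it did not pass without sgCTL A or without sgDNAJC17 B.

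**Figure D3:**
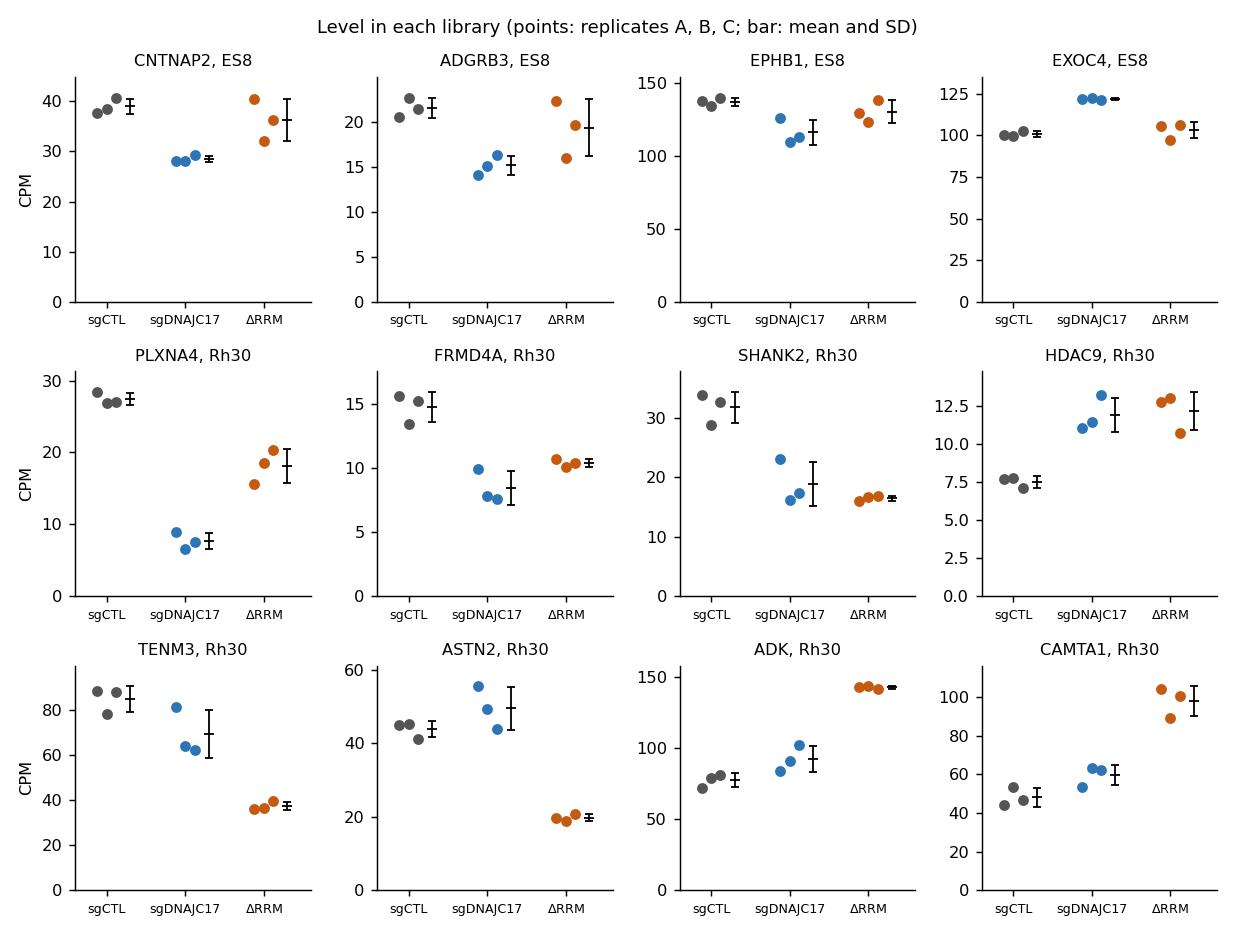
CPM in every library for 12 very long genes, with points for replicates A, B and C and a bar for the mean and SD of each group. The top row shows ES8 and the other rows Rh30. *PLXNA4* lies at 26.9 to 28.4 CPM with sgCTL, 6.61 to 8.85 CPM with sgDNAJC17 and 15.6 to 20.3 CPM in ΔRRM cells.

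The genes were grouped by role, with 29 on no list and some on more than 1. Shares are to be read against the 13.8% of all genes that fell and the 13.6% that rose in ES8, and 16.2% and 16.1% in Rh30. Cell adhesion, neurite guidance and synapse genes were the largest group, and in ES8 21 of 41 tested, or 51.2%, fell and 0 rose, with a median log2 fold change of -0.26. In Rh30, 8 of 27, or 29.6%, fell and 1 rose, with a median of -0.20. Of ion channels and neurotransmitter receptors, 2 of 7 (28.6%) fell in ES8 and 1 of 4 (25%) rose in Rh30, with medians of -0.20 and 0.20. That was the most unlike pair of medians between the lines, but over partly different genes. *ASIC2* was tested in ES8 alone and *GRID1* in Rh30 alone. Over the 8 genes of this list in the interaction fit, the median difference was 0.16 and 1 was called. Among them, *GRIK2*, a kainate receptor, had 0.14 (adjusted p = 0.293) in ES8, and the potassium channel *KCNMA1* -0.46 (adjusted p = 0.026). For comparison, the median of all very long genes was -0.16 in ES8 and -0.11 in Rh30.

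Receptor phosphatases and polarity scaffolds had medians of -0.16 and -0.15, with 2 of 6 down in ES8 and 3 of 9 down in Rh30, 33.3% in each, and none up. *PTPRD*, almost absent from ES8, went from 34.3, 30.7 and 33.4 to 30.8, 25 and 23.5 CPM in Rh30 (-0.30, adjusted p = 0.021), with sgDNAJC17 A inside the sgCTL range. After removal of the trend with exonic length its adjusted p was 0.0858, and it did not pass without sgCTL A, sgCTL C, sgDNAJC17 B or sgDNAJC17 C. Its relative *PTPRG* had -0.13 (adjusted p = 0.0937) in ES8 and -0.14 (adjusted p = 0.169) in Rh30, and the polarity protein *PARD3* -0.08 and -0.09. Kinase and lipid signalling genes fell in 4 of 13 cases (30.8%) in ES8, and in Rh30 2 of 10 (20.0%) fell and 1 rose. Regulators of small GTPases and the cytoskeleton showed 5 of 18 (27.8%) down and 1 up in ES8, and 5 of 20 (25%) down and 1 up in Rh30. *DOCK1*, an exchange factor for Rac, was among those that fell, at 72.8, 70.8 and 74.5 and then 58, 58.9 and 58.3 CPM in ES8. *EXOC4*, more abundant and on the same list, was the 1 that rose there, from a mean of 100.7 to 121.9 CPM.

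Of transcription factors and chromatin regulators in ES8, 3 of 21 fell, 14.3% against 13.8% of all genes, and 0 rose, with a median of -0.06. In Rh30, 3 of 15 (20.0%) fell and 3 rose, with a median of -0.15. Genes of common fragile sites were mixed, with 7 of 20 (35.0%) down and 2 up in ES8 and 2 of 20 (10.0%) down and 3 (15%) up in Rh30. Glycosylation, transport and metabolism genes had 3 of 22 (13.6%) down in ES8, and 5 of 20 (25%) down and 2 up in Rh30. The RNA-binding list held 3 very long genes. *RBFOX1* was at 14.7, 14.2 and 14.9 and 15.4, 13.4 and 13.9 CPM in Rh30, a log2 fold change of -0.02 (adjusted p = 0.866), and *CELF2* fell from 77.9 ± 1.76 to 64.5 ± 6.79 CPM (SD, n = 3), with -0.26 and an adjusted p of 0.0134. With exonic length removed that p was 0.10, and *CELF2* did not pass without sgCTL B, sgDNAJC17 B or sgDNAJC17 C. Of the 29 genes on no list, 28 were tested in ES8 with 8 (28.6%) down and 1 up, and 23 in Rh30 with 11 (47.8%) down and 3 up.

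**Figure D4:**
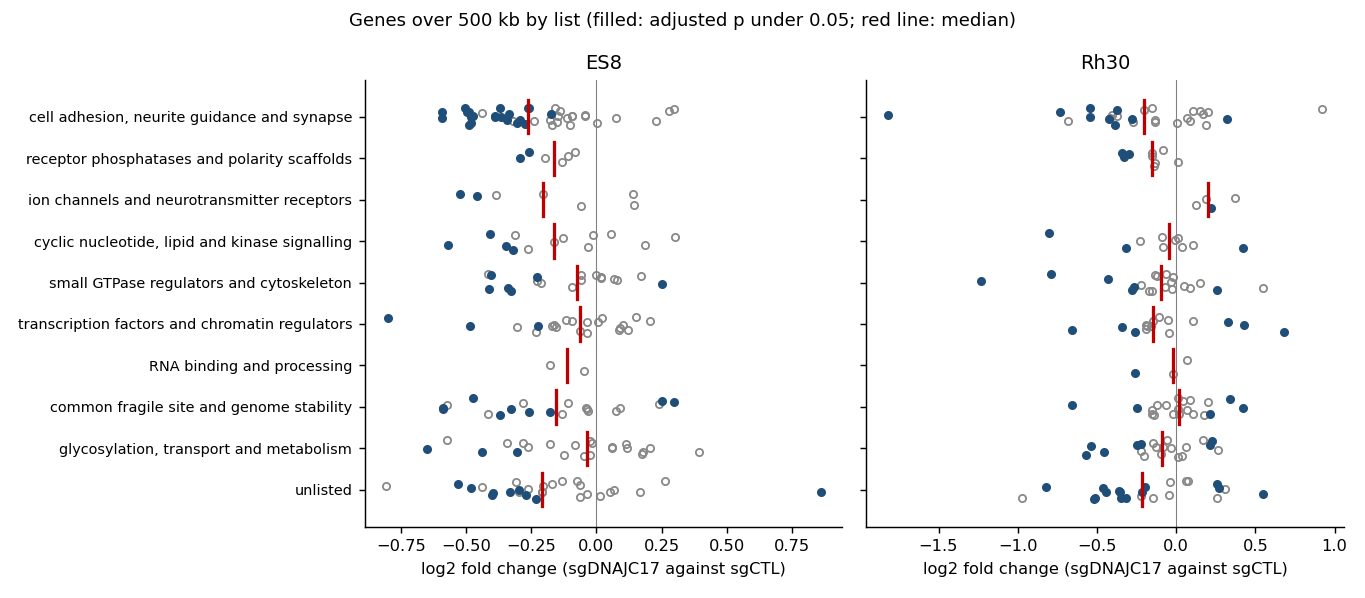
Log2 fold change of sgDNAJC17 against sgCTL for each very long gene by list of roles, with filled points for an adjusted p under 0.05 and a red line at the median. Adhesion, guidance and synapse genes have a median of -0.26 in ES8 and -0.20 in Rh30, and ion channels and receptors -0.20 and 0.20. The genes tested differ in part between the lines.

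Some of the very long genes fell in both lines. Of the 122 genes tested in both, 34 fell in ES8, 35 in Rh30 and 11 in both, which was 32.4% of the first and 31.4% of the second. Those shares were near the 27.9% of very long genes that fell among those tested in Rh30 and the 30.7% in ES8. Over all 13841 genes tested in both lines, the shares were 41.8% and 36.2%, where 16.2% of all genes tested fell in Rh30 and 13.8% in ES8. The 11 were 9.02% of the 122, where 6.18% of all genes tested in both lines fell in both. That share depends on how often genes fell in each line, which was more often for the very long genes. Of the 122, 3 rose in ES8 and 12 in Rh30, and 0 rose in both, where 6.17% of all genes did. Across genes, log2 fold changes of the 122 had a Pearson correlation of 0.12 and a Spearman correlation of 0.14 between lines, against 0.37 and 0.35 over all genes. These are across genes, which share libraries within a line and are not replicates.

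The 11 were *ADGRL2*, *ATP8A2*, *DOCK1*, *ERC1*, *GPHN*, *KIAA1217*, *PRKCA*, *PSD3*, *PTPRK*, *SBF2* and *SDK1*, of which all but *DOCK1*, *ERC1* and *PRKCA* were picked out after their values were seen. *ADGRL2*, the adhesion receptor latrophilin 2, went from 16.8, 15.3 and 15.3 to 11.2, 13.3 and 11.9 CPM in ES8 (-0.40, adjusted p = 0.0114). In Rh30 it went from 43.2, 40.8 and 44.2 to 32.3, 31.3 and 28.4 CPM (-0.46, adjusted p = 0.000345). *GPHN*, or gephyrin, the scaffold of inhibitory synapses, went from 21.3, 21.4 and 20.1 to 15.2, 15.1 and 15.4 CPM in ES8 (-0.48, adjusted p = 0.00186). Its levels in Rh30 were 40.8, 36.9 and 36.7 and 29.8, 28.9 and 27.8 CPM (-0.39, adjusted p = 0.00109). *SDK1*, an adhesion protein of synaptic layers, had -0.37 and -0.55, and *PRKCA* -0.35 and -0.32. No sgDNAJC17 library of *ADGRL2* or *GPHN* reached the sgCTL range in either line, though *ADGRL2* in ES8 did not pass without sgCTL A. In ES8 the call was also lost without sgCTL C for *KIAA1217*, without sgCTL A or C for *SBF2*, without sgCTL B or C or sgDNAJC17 B for *ATP8A2*, without any 1 sgCTL library or sgDNAJC17 B for *PSD3*, without any 1 sgCTL library or sgDNAJC17 C for *PRKCA*, and without any 1 library other than sgDNAJC17 A for *ERC1*. In Rh30 it was lost without any 1 library other than sgDNAJC17 A for *ATP8A2* and *SBF2* and without sgDNAJC17 B for *ERC1* and *PRKCA*. The calls of *DOCK1*, *GPHN*, *PTPRK* and *SDK1* held in both lines without each library. After removal of the trend with exonic length, 4 of the 11 passed in both lines, *ADGRL2*, *DOCK1*, *GPHN* and *PTPRK*, and with DESeq2 in place of edgeR 8 did.

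**Figure D5:**
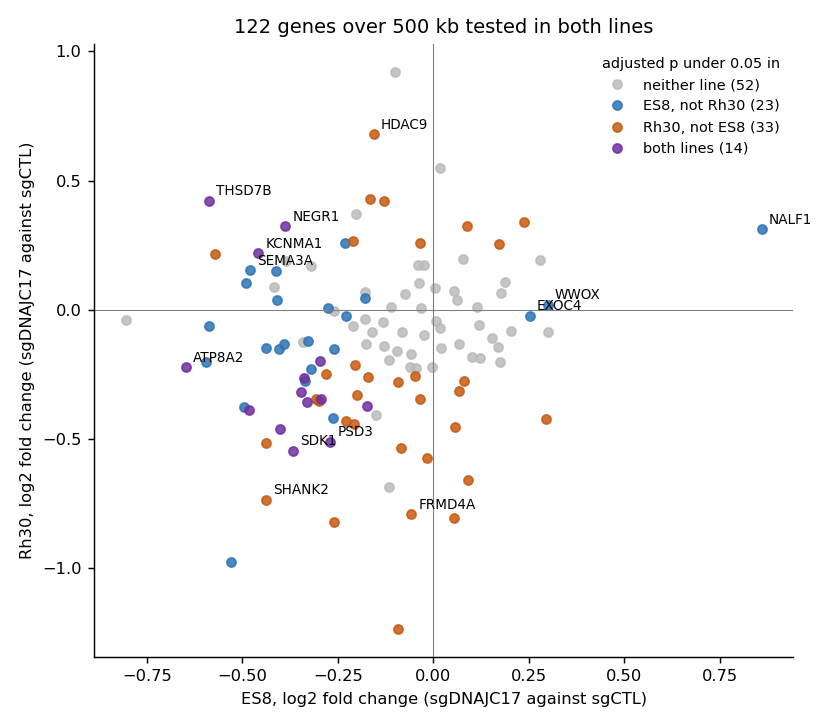
Log2 fold change of sgDNAJC17 against sgCTL in ES8 (horizontal) and Rh30 (vertical) for the 122 very long genes tested in both lines, coloured by the line in which the adjusted p was under 0.05. Purple points, called in both, include 11 genes below 0 in both lines and 3, *KCNMA1*, *NEGR1* and *THSD7B*, below 0 in ES8 and above 0 in Rh30.

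Some genes moved in opposite directions, and the difference between the lines was tested as an interaction over the 12 parental libraries. Of 177 genes in that fit, 122 passed the filter on low counts within both lines, 41 within ES8 alone and 14 within Rh30 alone. The shares that follow are therefore not shares of genes well measured in both lines. Of the 177, 20 had a higher effect in Rh30 and 6 a lower one, 11.3% and 3.39% against a background of 5.23% and 4.55%. These counts fell to 8 and 3 without Rh30 sgCTL A, 12 and 3 without ES8 sgCTL A, and 12 and 3 without Rh30 sgDNAJC17 C. The lower group also went to 11 without Rh30 sgDNAJC17 A, 3 without ES8 sgCTL B, 2 without ES8 sgCTL C and 2 without Rh30 sgDNAJC17 B.

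*NEGR1*, an adhesion molecule of the *OPCML* family, went from 8.86, 8.18 and 9.61 to 5.68, 7.03 and 7.95 CPM in ES8, while its levels in Rh30 were 52.9, 56.5 and 56.7 and then 70.5, 66.4 and 68.9 CPM. Its difference of effects was 0.74 (± 0.13 SE, adjusted p = 0.00157) on the log2 scale. *KCNMA1*, the pore of the large-conductance potassium channel, had 3.37, 3.41 and 3.49 and then 2.83, 2.52 and 2.25 CPM in ES8 but 62.1, 64.2 and 63.9 and then 74.2, 76.6 and 68.4 CPM in Rh30, a difference of 0.70 (± 0.13 SE, adjusted p = 0.00288). In both genes the sgDNAJC17 libraries were all lower in ES8 and all higher in Rh30. The call in ES8 was lost for both without sgCTL A, B or C or without sgDNAJC17 B, and for *KCNMA1* also without sgDNAJC17 C, while that of *KCNMA1* in Rh30 was lost without sgCTL A, B or C or sgDNAJC17 B. The calls of the difference itself held without each library. In ES8 neither gene passed after removal of the trend with exonic length (adjusted p = 0.153 and 0.194).

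*SEMA3A*, a secreted guidance cue whose signal runs through plexins, went from 34.2, 31.1 and 34.8 to 20.6, 25.2 and 27 CPM in ES8 (-0.48, adjusted p = 0.00737). In Rh30 it had 101, 99.7 and 109.9 and then 116, 109 and 117 CPM (0.15, adjusted p = 0.0752, or 0.00195 with the replicate letter as a block), and the difference was 0.66 (± 0.11 SE, adjusted p = 0.00139). *HDAC9* differed by 0.86 (± 0.15 SE, adjusted p = 0.00143), with -0.16 in ES8 (adjusted p = 0.297), and *THSD7B* by 1.03 (± 0.20 SE, adjusted p = 0.00265). *RORA* and *FRMD4A*, which fell in Rh30, had 0.09 (adjusted p = 0.563) and -0.06 (adjusted p = 0.633) in ES8.

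ΔRRM cells with sgDNAJC17 were set against both groups of parental cells, so the comparisons share libraries. In ES8, 0 of 164 very long genes passed against sgCTL by edgeR in either direction, where 0.0930% of all genes rose and 0.0814% fell. At an unadjusted p under 0.05 there were 34, and DESeq2 called 3 down, *NEGR1*, *NCKAP5* and *CDH12*, the last 2 of them named after their values were seen. The median log2 fold change was -0.10, against -0.0003 for all genes. It rested on library B, whose very long genes had a median deviation of -0.25 while A had 0.02 and C -0.04, and it was -0.01 without B. Genes under 30 kb stood at 0.12 in library B, the highest of the 9 ES8 libraries. *ERC1*, a relative of *ERC2*, is an example, with 77.2, 57.1 and 74.7 CPM in ΔRRM libraries A, B and C against 86, 85.8 and 89.6 CPM with sgCTL. For the 50 genes that fell with sgDNAJC17, the median was -0.39 in that comparison and -0.15 for ΔRRM against sgCTL. The 50 were chosen by the first comparison, and both use the same sgCTL libraries. The choice alone can make the second median smaller, so the pair does not measure rescue.

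Against sgDNAJC17, 11 very long genes were higher in ΔRRM cells of ES8 and 2 lower, 6.71% and 1.22% against a background of 7.35% and 7.36%. The median log2 fold change was 0.09. With a trend in GC content removed, 23 were higher and 8 lower, or 14.0% and 4.88%. In the classes of shorter span, 14.7% to 19.4% were then higher and 7.95% to 19.0% lower. *ATP8A2*, a phospholipid flippase picked out after its values were seen, held 1.51, 1.25 and 1.56 CPM with sgDNAJC17 and 3.38, 2.71 and 2.29 CPM in ΔRRM cells (0.98, adjusted p = 0.00752). *CNTNAP2* held 40.5, 32.1 and 36.3 CPM in ΔRRM cells, a log2 fold change of 0.37 (adjusted p = 0.0369), and *ATRNL1* 4.25, 4.9 and 4.02 CPM, with 0.71 (adjusted p = 0.00826). *CNTNAP2* did not pass without sgDNAJC17 B or C or without ΔRRM A or C. The lower genes, *NKAIN2* being named for that, were *NALF1* with -0.73 and *NKAIN2* with -0.66. Without ΔRRM library B, 21 genes were higher and 1 lower. The higher count was 4 without ΔRRM A, 2 without ΔRRM C, 6 without sgDNAJC17 B and 5 without sgDNAJC17 C.

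In Rh30, more of the very long genes were called for ΔRRM against sgCTL than after sgDNAJC17 alone, as were more of all genes. Of 140 very long genes, 69 were lower than with sgCTL and 33 higher, 49.3% and 23.6% against a background of 35.0% and 33.8%. Of the other protein-coding genes under the same exon and count limits, 42.1% were lower and 36.0% higher. At 2-fold or more, 9 of the very long genes were lower and 8 higher, where the background was 3.32% and 6.66%. The median was -0.25, against -0.01 for all genes, and the median deviation was between -0.30 and -0.27 in all 3 libraries. Scaling by library totals alone shifted the median of all genes to -0.25 and that of the very long genes to -0.49, with 84 lower and 20 higher, so that the gap between them stayed at -0.24. With a trend in GC content removed, 80 were lower and 22 higher, or 57.1% and 15.7%. Genes of 200 to 500 kb then had 62.8% lower and 15.2% higher. Without that step, genes of 100 to 200 kb and of 200 to 500 kb had medians of -0.26 and -0.30, as low as the very long genes. For the 38 genes that fell with sgDNAJC17, the median was -0.38 in that comparison and -0.55 for ΔRRM against sgCTL. The 38 were likewise chosen by the first comparison, and both use the same sgCTL libraries.

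*HIVEP3*, a zinc finger regulator, stood at 36, 31.9 and 36.4 CPM with sgCTL, 32.1, 23.8 and 24.9 CPM with sgDNAJC17 and 14.7, 14 and 16 CPM in ΔRRM cells of Rh30. Its log2 fold change for ΔRRM against sgCTL was -1.19 (± 0.08 SE, adjusted p = 2.07e-20). *TENM3*, a teneurin adhesion protein, stood at 88.5, 78.5 and 88.2, 81.5, 64.3 and 62.3 and 36, 36.6 and 39.5 CPM, with -1.15 (± 0.07 SE, adjusted p = 9.36e-23). *ASTN2*, an astrotactin of migrating neurons, was not lower with sgDNAJC17, and it stood at 45, 45.1 and 41.3, 55.5, 49.2 and 43.8 and 19.5, 18.8 and 20.8 CPM, with -1.12 (± 0.07 SE, adjusted p = 1.37e-20). In each gene the ΔRRM libraries were far below both other groups.

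Of the genes that were higher, *ADK* stood at 72, 79.2 and 81.2 CPM with sgCTL, 83.8, 90.9 and 102 CPM with sgDNAJC17 and 143, 143 and 142 CPM in ΔRRM cells, a log2 fold change of 0.92 (± 0.06 SE, adjusted p = 6.39e-20) for the last against the first. *CAMTA1* stood at 44.1, 53.4 and 46.8, 53.6, 63.1 and 62.1 and 104, 89.1 and 101 CPM, with 1.06 (± 0.07 SE, adjusted p = 7.2e-21). *BANK1* reached 4.29, 4.58 and 3.69 CPM (1.12, adjusted p = 7.78e-09). In all 3 the ΔRRM libraries were above both other groups. By role, 16 of 20 (80.0%) regulators of small GTPases and the cytoskeleton were lower and 0 higher, where 35.0% of all genes were lower and 33.8% higher, and 8 of 9 (88.9%) receptor phosphatases and polarity scaffolds were lower and 1 higher. Transcription factors and chromatin regulators were even, with 7 of 16 (43.8%) lower and 7 higher. *PRKCA* went from 150.5, 129 and 136 to 71.3, 74.9 and 70.1 CPM, and *RUNX1*, which had -0.05 with sgDNAJC17, from 153, 141 and 148 to 97.1, 101 and 95.4 CPM (-0.56, adjusted p = 5.17e-12).

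Against sgDNAJC17 in Rh30, 51 very long genes were lower in ΔRRM cells and 33 higher, 36.4% and 23.6% against a background of 30.5% and 29.4%. Of the other protein-coding genes under the same exon and count limits, 35.8% were lower and 31.0% higher. The median log2 fold change of the very long genes was -0.14. *THSD7B* fell from 4.33, 3.89 and 4.24 to 0.766, 0.755 and 0.819 CPM (-2.40, adjusted p = 6.53e-18). *PLXNA4* and *RORA*, both low with sgDNAJC17, were higher in ΔRRM cells, with log2 fold changes of 1.24 and 1.10. *RORA* reached 9.52, 9.24 and 8.19 CPM, above its sgCTL range, and differed from sgCTL by 0.46 on the log2 scale (adjusted p = 0.000134). That difference was 0.039 with a trend in GC content removed and 0.22 with library totals alone, and passed under neither. *SHANK2* had -0.19 (adjusted p = 0.10), with 16, 16.7 and 16.8 CPM. Scaling by library totals alone shifted the median of all genes in this comparison to -0.17, and 75 very long genes were lower and 21 higher. With a trend in GC content removed, 66 were lower and 27 higher, or 47.1% and 19.3%. Genes of 200 to 500 kb then had 48.9% lower and 17.2% higher.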

How the data were processed

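RNA of 18 libraries was analysed, 3 per group. Per the labels and methods, the authors trimmed reads with Trimmomatic 0.36, aligned them with STAR 2.5.2b and counted them per gene with featureCounts of Subread 1.5.2, and they deposited raw counts, without normalization, with exon coordinates. The strand setting is not given in the sources used here, so reads of overlapping antisense genes cannot be told apart. Near-identical genes such as *PCDH11X* and *PCDH11Y* may share reads. The methods name hg19, but the submitters' processing notes name GRCh38 and the files' coordinates are of that build. Ensembl identifiers were looked up in a GENCODE annotation for biotype, symbol and transcript GC content, and 55082 of 57500 had an entry, but positions are those of the files. Members and lists were chosen with earlier results of these data known.

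Counts were scaled by TMM, filtered with filterByExpr and tested with the quasi-likelihood test of edgeR 4.0.16 (R 4.3.3) over all genes of the 6 libraries compared, with Benjamini-Hochberg adjustment and a threshold of 0.05. Line by sgRNA interaction used the 12 parental libraries. Named genes were the 5 longest, in each line the 6 that rose and the 6 that fell most (mean count of at least 100), those past 1.5-fold in both lines (0 met this), the 5 of smallest interaction p, the 3 highest per kb of exon in each line, the 2 highest per list, those at the limits and, for ΔRRM against sgCTL, the 3 largest in each direction. A lowess curve (span 0.3) on exonic length or GC content was removed through offsets. Alternatives also covered DESeq2 1.42.0, its size factors, library totals, other filters, 1 fit of 18 libraries, the replicate letter as a block, other limits on span, exon blocks and counts, a 2-fold requirement and each library left out. On simulated data of ES8, 199 of 200 changed genes were recovered among 16933, with 14 false calls. The median size of change there was 1.003 on the log2 scale. Recovery at smaller sizes, such as the median of 0.39 for very long genes that fell in ES8, was not tested.

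Whether replicates of 1 letter deviated together was checked. After knockdown in Rh30, the correlation over 11426 genes whose mean count was 100 or more was 0.577, 0.287 and 0.348 for A, B and C. Over all 15391 genes tested these were 0.203, 0.072 and 0.0975. In each other comparison at least 1 letter was under 0.1. The labels give no shared source for a letter.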

Additional observations from a re-analysis of the deposited data

Results flagged for a closer look

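The effect of sgDNAJC17 differed between Rh30 and ES8 in 13 named genes by the interaction test, with differences given here as log2 values, Rh30 minus ES8. Higher in Rh30 were *SEMA3A* (0.66), *HDAC9* (0.86), *NEGR1* (0.74), *THSD7B* (1.03), *KCNMA1* (0.70), *FGF13* (0.58), *ADK* (0.50), *SUPT3H* (0.62) and *ATRNL1* (0.55). Lower in Rh30 were *FRMD4A* (-0.71), *RORA* (-0.72) and *TRAPPC9* (-0.53). The call of *ATRNL1* was lost without any 1 of the 12 libraries other than ES8 sgDNAJC17 A and Rh30 sgCTL B, and also with GC correction (0.42), with library totals alone (0.51), without a filter on low counts (0.52) and with all 18 libraries in 1 fit (0.49). That of *TRAPPC9* was lost without any 1 of ES8 sgCTL A, B and C, Rh30 sgCTL A and C and Rh30 sgDNAJC17 B and C. That of *SUPT3H* was lost without ES8 sgCTL A, Rh30 sgCTL A or Rh30 sgDNAJC17 B and with GC correction, alone (0.43) or with the replicate block (0.42), that of *ADK* without Rh30 sgCTL A or Rh30 sgDNAJC17 C and that of *FGF13* without Rh30 sgCTL A.

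*FGF12* also passed, with a fitted difference of 5.97, which depends on the prior count and is no bound. Its counts in Rh30 were 0, 0 and 0 with sgCTL and 4, 5 and 5 with sgDNAJC17, against 307, 299 and 316 and then 136, 161 and 219 in ES8.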

How the results depend on the processing

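The median log2 fold change of the very long genes kept its sign in all comparisons under every alternative run. With library totals alone it was -0.21 in the ES8 and -0.17 in the Rh30 knockdown, and for ΔRRM in Rh30 -0.49 against sgCTL and -0.30 against sgDNAJC17. Members up were then 9 in the Rh30 knockdown, and 20 and 21 in the ΔRRM comparisons of Rh30. With GC correction the ES8 knockdown had 15 up and a median of -0.12, ΔRRM against sgCTL in Rh30 had -0.39, and ΔRRM against sgDNAJC17 in ES8 had 23 up and 8 down. With exonic length correction the ES8 knockdown had 8 up, 29 down and -0.032, and the Rh30 knockdown 26 up, 25 down and -0.013. Without a filter 5 rose in ES8. Genes over 1 Mb had a median of -0.0042 in Rh30 (21 genes). With 2-fold required, 0 up and 0 down in ES8 and 0 up and 2 down in Rh30 were left after knockdown, 8 up and 9 down for ΔRRM against sgCTL in Rh30, 1 up and 0 down in ES8 and 8 up and 4 down in Rh30 for ΔRRM against sgDNAJC17, and 6 up and 1 down for the interaction. DESeq2 gave 3 down for ΔRRM against sgCTL in ES8 and 4 down against sgDNAJC17.

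The replicate block gave 3 up and 43 down in the ES8 knockdown, 18 up and 46 down in the Rh30 knockdown, 2 down for ΔRRM against sgCTL in ES8, and counts within 1.5 times elsewhere. It lost the calls of *DLG2*, *FAF1*, *PRKCA* and *ERC1* in the ES8 knockdown and lost no call of a named gene in the Rh30 knockdown, where it added *ASTN2* (adjusted p = 0.00274), *PTPRG* (0.0293) and *SEMA3A* (0.00195). With GC correction and the replicate block together, the ES8 knockdown had 13 up and a median of -0.12, ΔRRM against sgCTL in Rh30 had 21 up and -0.39, ΔRRM against sgDNAJC17 in ES8 had 20 up and 8 down, and the interaction 11 down.

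With each library left out in turn, members up and down ranged over 2 to 15 and 23 to 67 in the ES8 knockdown (median -0.19 to -0.14) and over 5 to 15 and 21 to 48 in the Rh30 knockdown (-0.13 to -0.07). For ΔRRM against sgCTL they were 0 and 0 to 7 in ES8, with 7 down without ΔRRM A and 2 without ΔRRM B (-0.16 to -0.01), and 28 to 30 and 65 to 69 in Rh30 (-0.27 to -0.20). For ΔRRM against sgDNAJC17 they were 2 to 21 and 1 to 2 in ES8 (0.03 to 0.14), and 27 to 31 and 48 to 52 in Rh30 (-0.17 to -0.085). The interaction gave 8 to 20 and 2 to 11.

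Of named genes, *KCNMA1* for ΔRRM against sgCTL in Rh30 changed sign with library totals alone (-0.093), GC correction (-0.00032) and GC correction with the replicate block (-0.00128), and *ATP8A2* did so with library totals alone (-0.029). Over the alternatives that kept all libraries, calls of named genes held in 1128 cases and were lost in 82, among them *ROBO2* in ES8 with GC correction and *ERC1*, *PRKCA* and *FAF1* in ES8 with DESeq2. With each library left out in turn they held in 887 cases and were lost in 186. The causes were not tested.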
